A study of Mus musculus with 8 samples.

Results

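*St18*, *Myt1* and *Myt1l* make up the Myt family of zinc finger transcription factors, and they are described here in embryonic mouse brains under 2 maternal diets. The 3 genes were taken by name from the 33971 genes of the table, and they are the whole family. The family was chosen with the difference between the diets in these same brains already known, so the values of its members between the diets are a description and carry no test. Whole brains of WT embryos at E14.5 were collected from WT dams fed a choline-deficient diet (CDD, 4 brains) or a normal chow diet (ND, 4 brains), and polyadenylated RNA was sequenced in bulk. According to the methods the CDD was given from mating until the embryos were collected. How many dams and litters were used is not stated, so it is not known which brains came from littermates.

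Myt family proteins bind DNA through clusters of zinc fingers of the CCHHC type, whose core recognition sequence is AAGTT, and they act largely as repressors in cells that become neurons. MYT1L is made by postmitotic neurons, where it represses genes of other cell fates, and it converts fibroblasts into neurons in combination with other factors such as POU3F2. MYT1 is made in newborn neurons and in the oligodendrocyte lineage and opposes Notch signaling. ST18, also called MYT3, is made in differentiating neurons, among them neurons of the ventral forebrain, and in endocrine cells of the pancreas.

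The files list *St18* (ENSMUSG00000033740) on the plus strand of chromosome 1 from 6557455 to 6931164, *Myt1* (ENSMUSG00000010505) on the plus strand of chromosome 2 from 181405125 to 181469590, and *Myt1l* (ENSMUSG00000061911) on the plus strand of chromosome 12 from 29578383 to 29973212. The genome build of these positions is not given in the sources used here, and they differ from those of GRCm38. *St18* and *Myt1l* are long genes, with spans of 373.71 and 394.83 kb, whereas *Myt1* spans 64.466 kb. The listed lengths used for FPKM are 6464 bases for *St18*, 7191 for *Myt1* and 14018 for *Myt1l*. All 3 are protein coding and carry the transcription factor family entry zf-C2HC.

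RefSeq promoters, each taken from 250 bases before to 50 bases after a start site on GRCm38.p6, were matched for 2 of the 3 members. *Myt1* had 3 of them and *Myt1l* had 5. They were searched for the core sequence of the family itself, AAGTT, and its reverse complement AACTT, which cannot overlap each other. The window with the most matches is shown for each of these genes, because the family binds this core, and the matches are in capitals. The *Myt1* window lies at chr2:181763082-181763381 on the plus strand, with a match that begins 15 bases before the start site and another that spans the site, and the *Myt1l* window lies at chr12:29534972-29535271 on the plus strand, with matches that begin 230 and 83 bases before it.
Myt1: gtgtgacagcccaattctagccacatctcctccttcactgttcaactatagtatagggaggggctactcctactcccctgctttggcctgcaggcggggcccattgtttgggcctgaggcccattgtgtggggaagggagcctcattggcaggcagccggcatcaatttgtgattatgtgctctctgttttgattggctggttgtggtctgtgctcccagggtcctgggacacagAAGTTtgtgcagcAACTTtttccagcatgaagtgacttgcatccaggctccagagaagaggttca
Myt1l: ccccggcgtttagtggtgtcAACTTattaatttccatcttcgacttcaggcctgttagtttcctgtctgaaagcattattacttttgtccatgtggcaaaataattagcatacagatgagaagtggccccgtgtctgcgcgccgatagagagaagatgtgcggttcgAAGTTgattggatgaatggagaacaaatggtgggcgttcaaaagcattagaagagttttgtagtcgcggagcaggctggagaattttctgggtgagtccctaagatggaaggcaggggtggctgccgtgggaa
Each of the 3 *Myt1* windows held at least 1 match, as did 2 of the 5 *Myt1l* windows. At least 1 match stood in 39.3% of all 32851 promoters of 300 bases and at least 2 matches in 11.4%. A match is a string of letters and no evidence of binding.

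The libraries held between 31770217 and 43121170 counted reads, and the members were well covered, with 879 to 1596 reads for *St18*, 4091 to 6346 for *Myt1* and 8913 to 12320 for *Myt1l* in each brain. Genes that define embryonic brain, such as *Tubb3* and *Dcx*, were read in all 8 brains, and their list of 10 genes summed to 4226 to 4652 CPM (counts scaled to library size, with TMM factors) under CDD and 4293 to 4367 CPM under ND. CDD replicate 2 stood apart by its *Hox* genes of the caudal hindbrain and spinal cord. The 8 listed *Hox* genes summed to 108.6 CPM there and to at most 0.39 CPM in the 7 other brains. The values of the family under CDD are therefore also given without that brain, for the levels in FPKM as a choice made after seeing the data.

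*St18* was higher under CDD. Its level was 39.4, 40.8, 37.1 and 47.5 CPM in CDD replicates 1 to 4 and 27.3, 28.5, 25.4 and 26.5 CPM in ND replicates 1 to 4. The lowest CDD brain lay above the highest ND brain, and CDD replicate 4 was the highest of all. The means were 41.2 ± 4.47 CPM (SD, n = 4) under CDD and 26.9 ± 1.31 CPM (SD, n = 4) under ND. This is a log2 fold change of 0.61 (SE 0.070, 95% confidence interval 0.47 to 0.76), or 1.53-fold. The interval is for the difference between the diets, treats the brains as independent, and is given as a description. Without CDD replicate 2 the log2 fold change was 0.62.

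*Myt1* was also higher under CDD, by a smaller amount. It measured 151.9, 138.5, 147.4 and 151.1 CPM in CDD replicates 1 to 4 and 119.7, 135.0, 123.5 and 125.6 CPM in ND replicates 1 to 4. The groups did not overlap, but CDD replicate 2 and ND replicate 2 were the nearest pair. The means were 147 ± 6.13 CPM under CDD and 126 ± 6.51 CPM under ND (SD, n = 4 each). The log2 fold change was 0.23 (SE 0.045, 95% confidence interval 0.13 to 0.32), or 1.17-fold. Without CDD replicate 2 it was 0.26.

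*Myt1l*, the most abundant member in reads, did not separate the diets. Its level was 269, 285, 286 and 311 CPM in CDD replicates 1 to 4 and 293, 302, 315 and 316 CPM in ND replicates 1 to 4. CDD replicate 4 lay above ND replicates 1 and 2, and the other CDD brains lay below every ND brain. The means were 288 ± 17.4 CPM under CDD and 306 ± 11.1 CPM under ND (SD, n = 4 each). The log2 fold change was -0.09 (SE 0.050), with a 95% confidence interval from -0.19 to 0.015 that includes 0, and without CDD replicate 2 it was -0.08.

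**Figure D1:**
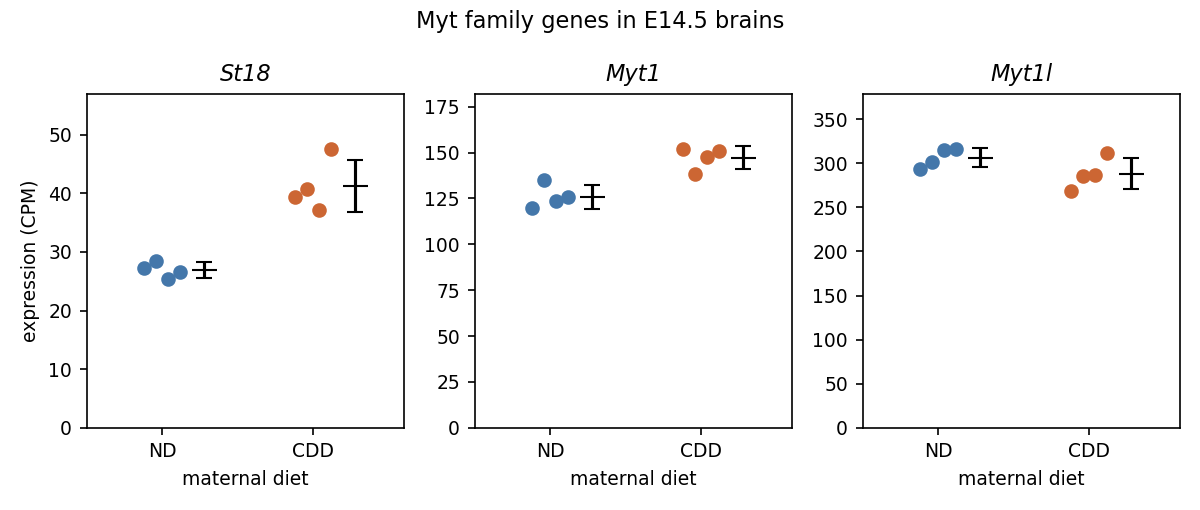
Level of each family member in CPM (vertical axes, from 0) by maternal diet, with 1 point per brain and the mean ± SD beside the points. The CDD brains lie above all ND brains for *St18* and *Myt1*, and the diets overlap for *Myt1l*.

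Thus 2 of the 3 members were called higher by edgeR's quasi-likelihood test, at a Benjamini-Hochberg adjusted p-value below 0.05, 0 were called lower, and the same 2 did not overlap between the diets. Of the 19367 genes tested, 8.83% passed this threshold, 4.24% as higher and 4.59% as lower under CDD, and 15.0% did not overlap between the diets. Since the members were selected on this contrast, nothing is read from their count. The median log2 fold change over all genes was close to 0 and its median size was 0.11. Among the 1203 tested genes with a transcription factor entry, of which 126 were called higher and 46 lower, the difference ranked 27 for *St18*, 172 for *Myt1* and 974 for *Myt1l* from the largest rise. In bulk RNA, fewer cells of a type and less RNA per cell cannot be told apart.

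The differences of the members were similar in size under the other ways of processing the counts. Over 16 alternatives, the log2 fold change of *St18* ran from 0.51 to 0.66, with the lowest on the log2(FPKM + 1) scale, and that of *Myt1* from 0.20 to 0.26. *Myt1l* ran from -0.13 to -0.05. Leaving out CDD replicate 4, the highest brain for *St18*, gave 0.54 for that gene.

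**Figure D2:**
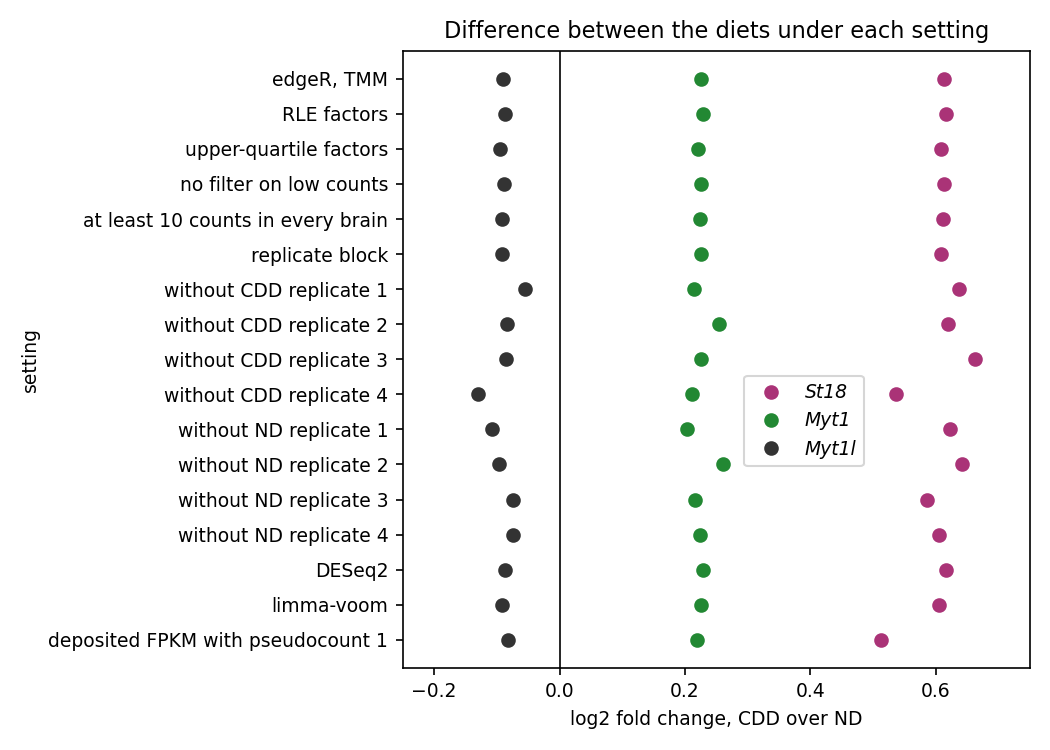
Log2 fold change of CDD over ND (horizontal axis) for each member under the analysis reported and 16 alternatives (vertical axis). *St18* stays between 0.51 and 0.66, *Myt1* between 0.20 and 0.26 and *Myt1l* between -0.13 and -0.05.

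Levels of different genes can be compared per length, for which the deposited FPKM (fragments scaled by gene length and by library size) were used. The comparison rests on the listed lengths, and whether these match the transcripts in these brains was not tested. Under ND, *Myt1l* averaged 21.7 ± 0.757 FPKM, *Myt1* 17.4 ± 0.907 FPKM and *St18* 4.14 ± 0.207 FPKM (SD, n = 4 each). In level these were ranks 122, 156 and 649 among the 1203 tested transcription factor genes, whose median was 4.73 FPKM. Under CDD the means were 20.5 ± 1.35 FPKM for *Myt1l*, 20.4 ± 0.859 FPKM for *Myt1* and 6.36 ± 0.721 FPKM for *St18* (SD, n = 4 each). Without CDD replicate 2 they were 20.5, 20.8 and 6.38 FPKM.

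The order of levels was tested over all 8 brains, since it was not used to choose the family. *St18* was the lowest member in 8 of 8 brains. It lay 1.85 ± 0.33 below *Myt1l* and 1.69 ± 0.18 below *Myt1* on the log2(FPKM + 1) scale (SD, n = 8), with an exact two-sided sign-flip permutation p = 0.0078 for each, the smallest 8 brains allow, and 0.0117 after adjustment over 3 pairs. These pooled SD include the difference between the diets. As a description, *St18* lay 1.55 ± 0.084 and 1.55 ± 0.13 below *Myt1l* and *Myt1* under CDD (SD, n = 4). Under ND it lay 2.14 ± 0.098 and 1.84 ± 0.057 below them (SD, n = 4). *Myt1l* exceeded *Myt1* in 6 of 8 brains, by 0.15 ± 0.18 (n = 8, exact permutation p = 0.0625, adjusted 0.0625). Those neighbours were not separated beyond their spread when the diets were pooled. Without CDD replicate 1, the brain with the lowest *Myt1l* level, the pair differed by 0.20 (n = 7, exact permutation p = 0.0312, unadjusted).

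Within a diet the relation of *Myt1l* to *Myt1* was not the same. Under ND, *Myt1l* was the higher of the pair in 4 of 4 brains, with a ratio of 1.25 ± 0.073 (SD, n = 4, range 1.15 to 1.31). Under CDD it was higher in 2 of 4 brains, with a ratio of 1.00 ± 0.070 (range 0.909 to 1.06), and without CDD replicate 2 the ratio was 0.987. The 2 ranges did not overlap. With 4 brains a diet the test allows no exact sign-flip p below 0.125, and the ratio is a description because it uses the contrast known when the family was chosen.

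**Figure D3:**
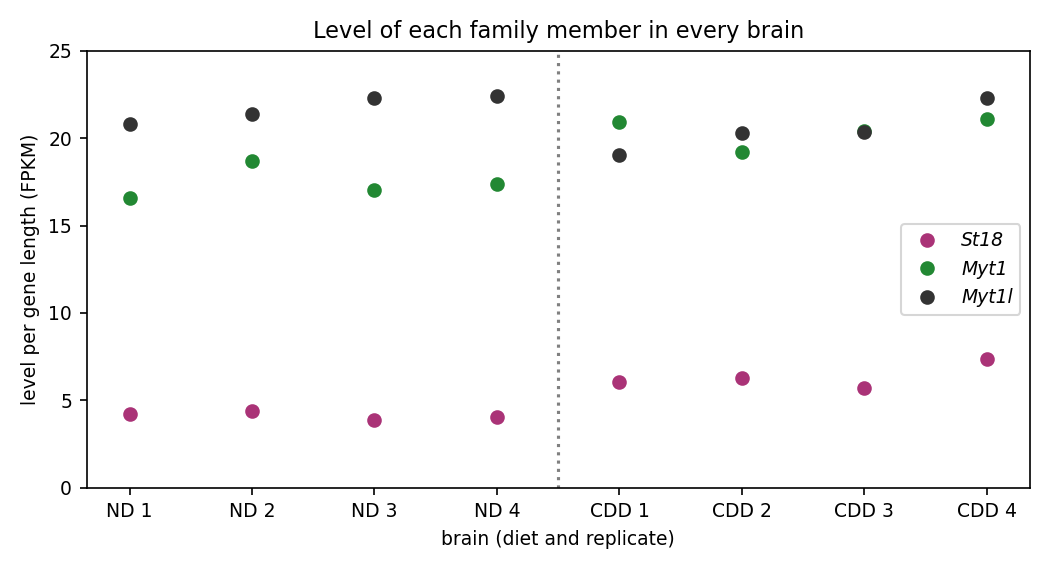
Level per gene length (FPKM, vertical axis from 0) of the 3 members in each brain, ND brains left of the dotted line and CDD brains right of it. *St18* is lowest everywhere, and *Myt1l* lies above *Myt1* in every ND brain but in only 2 of the 4 CDD brains.

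Summed over the family, the level was 47.2 ± 2.37 FPKM under CDD and 43.3 ± 1.24 FPKM under ND (SD, n = 4 each). *St18* supplied 13.4% of that sum under CDD and 9.57% under ND. *Myt1* supplied 43.2% and 40.2%, and *Myt1l* supplied 43.3% and 50.2%. Without CDD replicate 2 the CDD sum was 47.7 FPKM and the shares were 13.3%, 43.7% and 43.0%. The *Myt1* share overlapped between the diets, at 41.5% to 45.5% under CDD and 39.4% to 42.0% under ND. Since the shares add up to the whole, the share of *Myt1l* depends on the other members, and its own level overlapped between the diets.

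Whether the 3 genes move as a unit among brains of the same diet cannot be settled with 8 brains. After the mean of each diet was subtracted from log2 CPM, Pearson's r over 8 brains was 0.31 between *St18* and *Myt1*, 0.46 between *St18* and *Myt1l* and 0.07 between *Myt1* and *Myt1l*. CDD replicate 4 was above its diet mean for all 3 members, by 0.21, 0.04 and 0.11 on the log2 scale. CDD replicate 3 had the lowest *St18* of its diet, at -0.15, but lay close to the mean for *Myt1* and *Myt1l*. The points share their libraries and diet means, and r is given as a description.

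**Figure D4:**
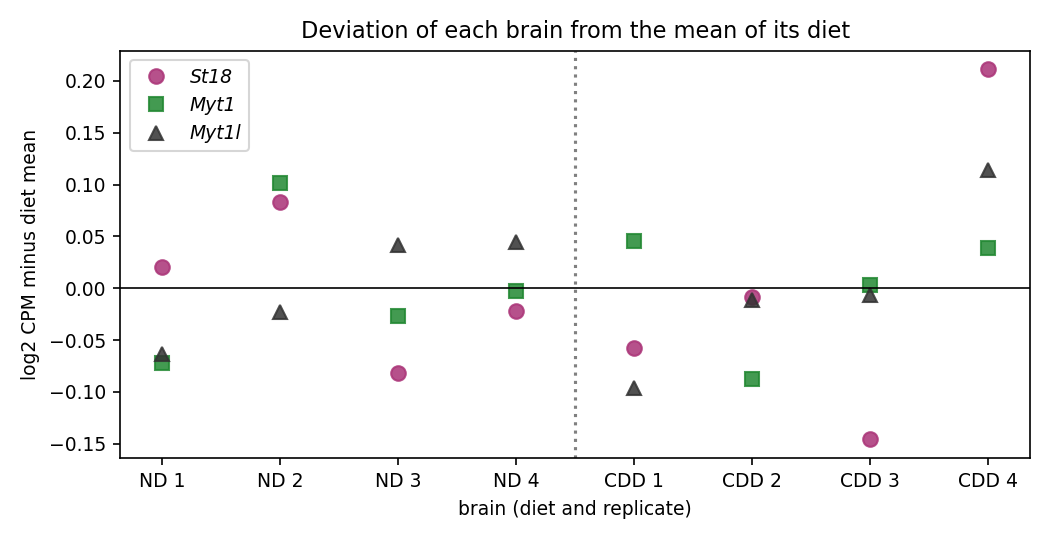
Deviation of each brain from the mean of its diet in log2 CPM (vertical axis) for the 3 members, ND brains left of the dotted line. *St18* has the widest spread, from -0.15 to 0.21 among the CDD brains.

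The genes whose deviations were most like those of a member were named by r, out of 15888 genes whose mean reached 1 CPM. For *St18* they were *Trp53inp1* (r = 0.992), *Ebag9*, *Anp32e*, *Rad21* and *Top2b* (r = 0.983), the last of which encodes a DNA topoisomerase. For *Myt1* they were *Chtf18* (r = 0.974), *Espl1*, *Gm13414*, *Gm48747* and *D330041H03Rik* (r = 0.967), of which *Espl1* encodes separase. For *Myt1l* they were *D430041D05Rik* (r = 0.994), *Elf1*, *Ap3d1*, *Gabrg3* and *Shank1* (r = 0.982), of which *Gabrg3* encodes a GABA receptor subunit and *Shank1* a postsynaptic scaffold. These r are the highest of 15888 for each member, over 8 brains that share their libraries, and are a description.

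**Figure D5:**
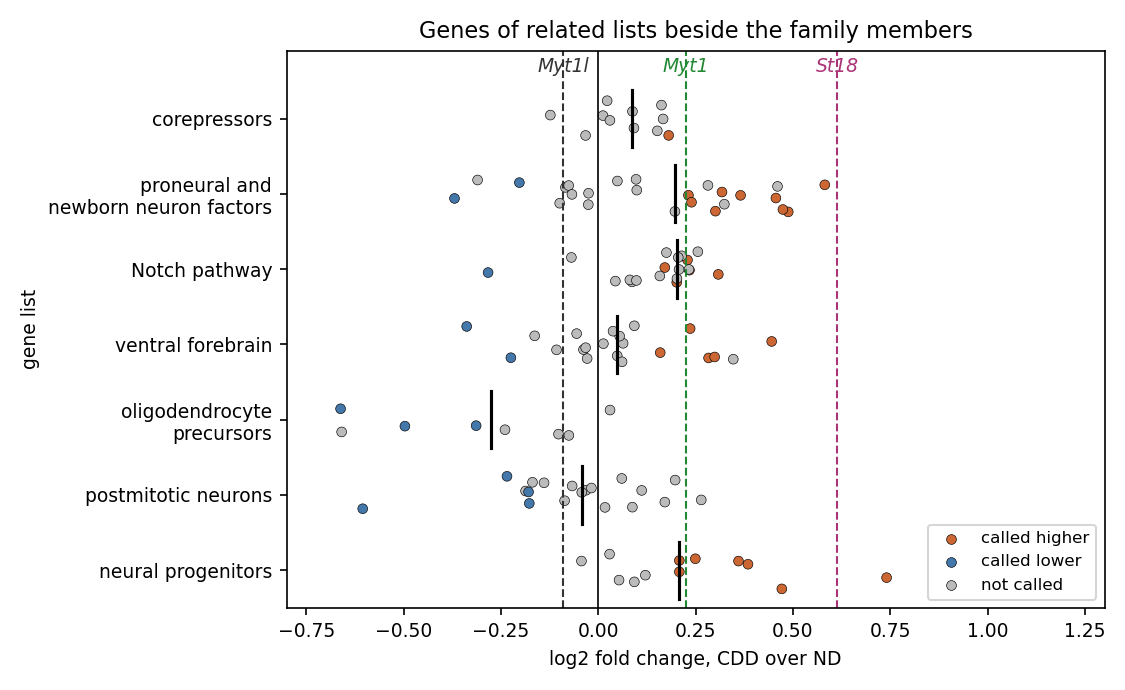
Log2 fold change of CDD over ND (horizontal axis) for the tested genes of 7 lists (vertical axis), with 1 point per gene, the median as a black bar, and the members as dashed lines. Progenitor genes lie mostly to the right and oligodendrocyte precursor genes mostly to the left.

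Genes that work with the family, or mark neural progenitors or the cells that express the family, were read from lists. Counts are of genes called by edgeR's quasi-likelihood test with adjustment over all genes, of which 8.83% were called. The lists were written with earlier results of these brains known, so their counts are no independent evidence. Of 11 corepressor genes, which include Sin3, HDAC and CoREST partners, 1 was higher, 0 were lower and 10 were not called, with a median of 0.09 on the log2 scale. The one was *Hdac2*, a histone deacetylase, at 350 ± 15.9 CPM under CDD and 308 ± 9.02 CPM under ND, a log2 fold change of 0.18 (adjusted p = 0.0238, edgeR). It was not called without CDD replicate 2 or ND replicate 1, 3 or 4, with an adjusted p of 0.0536 to 0.140 (edgeR). *Sin3b*, which encodes a partner of MYT1L, had a log2 fold change of -0.03 (edgeR adjusted p = 0.696). *Rest*, a repressor of neuronal genes outside neurons, had one of 0.09 (edgeR adjusted p = 0.366).

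Of 25 proneural and newborn neuron transcription factors, 9 were higher, 2 lower and 14 not called, with a median log2 fold change of 0.20. With each brain left out in turn, 6 to 11 were higher and 1 to 2 lower, and the median was 0.18 to 0.24, except for 0.09 without CDD replicate 4. *Pou3f2*, which works with *Myt1l* in reprogramming, had a log2 fold change of -0.08 (edgeR adjusted p = 0.199). The proneural gene *Neurog2* rose by 0.32, and *Nhlh1*, *Nhlh2* and *Ebf2* of newborn neurons rose by 0.49, 0.30 and 0.37 on the log2 scale, whereas *Bhlhe22*, a factor of postmitotic neurons, fell by 0.37. These last 5 were called in each of the 8 fits that left out a brain.

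Of 19 genes of the Notch pathway, which MYT1 opposes, 5 were higher, 1 was lower and 13 were not called, with a median log2 fold change of 0.20. The count of higher genes was 2 without ND replicate 1, 1 without ND replicate 3, 2 without ND replicate 4 and 5 to 7 without another brain. The ligand gene *Dll3* rose by 0.31 and the ligand gene *Jag2* fell by 0.28 on the log2 scale, and both were called without any 1 brain. *Rbpj*, the DNA-binding effector, rose by 0.23, and its edgeR adjusted p was 0.0552 without ND replicate 3. The receptor genes *Notch2* and *Notch3* rose by 0.23 and 0.17. *Notch2* was not called without ND replicate 1, 3 or 4 (edgeR adjusted p 0.0676 to 0.0838) and *Notch3* not without CDD replicate 2 or those same ND brains (0.0673 to 0.111). The Notch targets *Hes1* and *Hes5* had log2 fold changes of 0.23 (edgeR adjusted p = 0.0751) and 0.21 (edgeR adjusted p = 0.106), and both were called without CDD replicate 4, with adjusted p of 0.0121 and 0.0200.

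Of 21 genes of the ventral forebrain and of GABAergic neurons, 5 were higher, 2 lower and 14 not called, and none was called without ND replicate 1, 3 or 4, each left out alone. *Nkx2-1*, which specifies the medial ganglionic eminence, rose by 0.24, *Sox6* of migrating interneurons by 0.30, *Gbx2* by 0.45 and the GABA-synthesizing enzyme gene *Gad2* by 0.16 on the log2 scale. *Lhx6*, which acts downstream of *Nkx2-1*, fell by 0.22 and *Npas1* by 0.34. Each was called in 2 to 5 of the 8 fits without a brain. The highest edgeR adjusted p there was 0.0838 for *Nkx2-1*, 0.165 for *Lhx6*, 0.0741 for *Sox6*, 0.121 for *Gbx2*, 0.143 for *Gad2* and 0.108 for *Npas1*. Without CDD replicate 2, *Nkx2-1* rose by 0.29, *Sox6* by 0.34 and *Gad2* by 0.19, and each was called. In that fit *Gbx2* rose by 0.30, *Lhx6* fell by 0.15 and *Npas1* by 0.30, and none of them was called.

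Lists of markers were also read for neural progenitors and for the cells that express the family. Of 12 neural progenitor genes 7 were higher and 0 lower, and their summed level was 2054 to 2200 CPM under CDD and 1833 to 1969 CPM under ND. *Hmga2* rose by 0.74, *Sox3* by 0.38, the intermediate filament gene *Nes* by 0.47, *Prom1* by 0.36 and *Pax6* by 0.25 on the log2 scale, and all were called without any 1 brain. The number called then was 5 to 7. Of 19 genes of postmitotic neurons 0 were higher and 4 lower, and their sums overlapped, at 9746 to 10876 CPM under CDD and 10203 to 10668 CPM under ND.

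Those 4 neuronal genes were *Thy1*, a surface glycoprotein (log2 fold change -0.60), and the synaptic and axonal genes *Snap25* (-0.23), *Syn1* (-0.18) and *Gap43* (-0.18). None of the 4 was called without ND replicate 3, where the edgeR adjusted p was 0.0800, 0.0872, 0.149 and 0.194. *Snap25* was also lost without ND replicate 1 or 4, *Syn1* without these or CDD replicate 1, and *Gap43* in 7 of 8 fits. With each brain left out in turn, 0 to 6 neuronal genes were lower, with 0 without ND replicate 3, 1 without ND replicate 1 or 4, 2 without CDD replicate 1 and 6 without CDD replicate 2.

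Of 8 oligodendrocyte precursor genes, a lineage in which *Myt1* is also expressed, 0 were higher and 3 lower, and their sums were 124 to 139 CPM under CDD and 148 to 167 CPM under ND. *Olig1* fell by 0.50, the growth factor receptor gene *Pdgfra* by 0.31 and *Gpr17* by 0.66 on the log2 scale, each called without any 1 brain. *Sox10* (-0.66, edgeR adjusted p = 0.0644) and *Olig2* (-0.08, edgeR adjusted p = 0.487) were not called. *Sox10* was called without CDD replicate 2 or 3. None of the listed markers of these cells was at 0 in every brain. The part of the progenitor, neuron and oligodendrocyte precursor markers in the differences of *St18*, *Myt1* and *Myt1l* was not tested.

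Cells other than neurons, neural progenitors and oligodendrocyte precursors were marked by 5 further lists. Erythroid genes (2 of 7 higher) summed to 501 to 886 CPM under CDD and 471 to 1645 CPM under ND, and endothelial genes (1 of 6 lower) to 218 to 235 and 236 to 249 CPM. Microglial genes (0 of 6 called) summed to 41.1 to 44.7 and 44.1 to 51.3 CPM, meningeal genes (1 of 5 higher, 2 lower) to 431 to 480 and 459 to 549 CPM, and choroid plexus genes (1 of 5 higher) to 214 to 516 and 312 to 350 CPM. The embryonic globin genes *Hbb-y* and *Hba-x* rose by 2.24 and 1.67, the tight junction gene *Cldn5* fell by 0.28, and *Col1a1* and *Col1a2* fell by 0.23 each, while *Lum* rose by 0.29 and *Otx2* by 0.20 on the log2 scale. The 7 erythroid genes went both ways, with 4 above 0 and 3 below, the lowest at -0.64, and 5 were not called. *Hbb-y* and *Cldn5* were called without any 1 brain, *Hba-x* and *Col1a1* in 6 of 8 fits, *Otx2* in 4, *Col1a2* in 3 and *Lum* in 1. Their part in the family's differences was not tested.

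Only 5 of the 1408 genes with a transcription factor entry carry zf-C2HC, and the 2 outside the family are the polycomb-related chromatin readers *L3mbtl1* and *L3mbtl4*. Both were lower under CDD. *L3mbtl1* was at 6.51 ± 0.658 CPM under CDD and 9.07 ± 0.886 CPM under ND (log2 fold change -0.48, edgeR adjusted p = 0.0080) and *L3mbtl4* at 1.46 ± 0.246 and 2.44 ± 0.485 CPM (log2 fold change -0.73, edgeR adjusted p = 0.0189). *L3mbtl4* was not called without ND replicate 3 or 4, with an edgeR adjusted p of at most 0.0962.

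The spans of *St18* and *Myt1* overlap no other listed gene. That of *Myt1l* contains *C630031E19Rik* and partly overlaps *Gm20208*, 2 long noncoding RNAs on the opposite strand. The strand setting of the counting is not stated, and only spans were compared. Whether exons overlap, so that reads of the pair and of *Myt1l* could be mixed, was not tested. The 2 noncoding RNAs had 7 to 14 and 24 to 38 reads in each brain, against 8913 or more for *Myt1l*. Of the 547 tested genes with a span of at least 300 kb, like *St18* and *Myt1l*, 29 were called higher and 61 lower, with a median log2 fold change of -0.05. That is 16.5% called, beside 8.83% of all tested genes, of which 4.24% were higher and 4.59% lower.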

How the data were processed

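RNA-seq of 4 CDD and 4 ND brains at E14.5 was analysed, with groups taken from the maternal diet in the labels. Unnormalized counts per gene were deposited by the authors, together with a size-factor normalized signal (not used here) and FPKM values made from it with the listed gene length. They also deposited log2 fold changes with p-values for the diets, which were not used. The submitters' processing notes name HISAT2 2.0.5, featureCounts 1.5.0-p3 and DESeq2 1.20.0. The genome build and strand setting are not given in the sources used here. Library totals were 31770217 to 43121170 counts, and the common biological coefficient of variation over all genes was 0.0814. Counting error is part of the spread of the members too. *St18* had 879 to 933 reads in each ND brain and a total coefficient of variation of 4.85% under ND. Counting error is not small beside that spread. For genes with few reads, such as *L3mbtl4* with 37 to 101 in each brain, counting error is larger. Nothing says that brains came from separate litters, so p-values measure the spread between these samples, which may be technical. No library was a copy of another, since counts of any pair differed beyond sampling noise. This does not show that each library came from its own brain.

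The family members and gene lists were chosen with earlier results of these data known. Counts were filtered with filterByExpr (19367 genes left), scaled by TMM and fitted with edgeR 4.0.16 (R 4.3.3), where diet was the only term of the robust quasi-likelihood model, with Benjamini-Hochberg adjustment over all genes (threshold 0.05). CPM are scaled by TMM, with a prior count of 2 on the log2 scale. On simulated data for 19117 genes, the test recovered 17 of 74 genes changed by 0.25, 40 of 64 changed by 0.5 and 49 of 61 changed by 1 on the log2 scale, and called 12 unchanged genes. Levels were compared on log2(FPKM + 1) by exact sign-flip permutation. Other tools were SciPy 1.17.1, NumPy 2.4.6, pandas 2.3.3 and matplotlib 3.10.9 under Python 3.11.15.

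The genes named are the members, at most 5 called genes per list by smallest p-value, *Pou3f2*, *Hes1*, *Hes5*, *Sin3b*, *Rest*, *Lhx6*, *Nkx2-1*, *Olig2* and *Sox10*, the 5 genes most like each member, genes with the same family entry, and genes overlapping a member. One gene that this rule selects is not reported here. *Tubb3* and *Dcx* are named as examples of the brain list. The alternatives were RLE and upper-quartile factors, no filter, at least 10 counts in every brain, DESeq2 1.42.0, limma-voom (limma 3.58.1), the FPKM with a pseudocount of 1, the replicate number as a block, and each brain left out. For levels, a pseudocount of 0.1 and CPM without gene length were used.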

Additional observations from a re-analysis of the deposited data

Results flagged for a closer look

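A brain was marked when its gap to the nearest brain of its diet was large for the range of the 4 brains (Dixon's criterion), which chance does in about 1 in 20 groups. Of 124 groups examined, 5 were marked, and 6.2 would be by chance. In the family, the summed level was 50.8 FPKM in CDD replicate 4, beside 45.8 to 46.5 FPKM in the other CDD brains. The summed caudal *Hox* list was 108.6 CPM in CDD replicate 2, beside 0 to 0.39 CPM. *Sin3b* was at 140.7 CPM in CDD replicate 3, beside 129 to 131 CPM. *Nhlh2* was at 55.3 CPM in CDD replicate 3, beside 65.2 to 67.2 CPM. *Sox6* was at 92.9 CPM in ND replicate 2, beside 84.8 to 85.8 CPM.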

How the results depend on the processing

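*St18*, *Myt1* and *Myt1l* kept their direction under all 16 alternatives, which supports nothing, since they were chosen on this contrast. The number of genes called, 1710 in the reported analysis, was 471 to 2495 with each brain left out, with 688 without ND replicate 1, 471 without ND replicate 3 and 615 without ND replicate 4, and 519 on the deposited FPKM with a pseudocount of 1. The genes called in the lists, 46 in the reported analysis, were 20 to 53 with each brain left out, with 22, 20 and 22 without ND replicates 1, 3 and 4, and 15 on the deposited FPKM. *Myt1l* exceeded *Myt1* by 0.12 to 0.20 on the log2 scale with each brain left out, and passed the threshold without CDD replicate 1. In CPM, which is not divided by the listed lengths of 14018 bases for *Myt1l* and 7191 for *Myt1*, *Myt1l* exceeded *Myt1* by 1.12 and passed. The cause of the other shifts was not tested.

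Of 704 values of 44 other named genes, 591 stayed on the same side of the threshold, 104 fell below it, 9 passed it, and 0 changed direction. Brains with the same replicate number did not deviate together (r from -0.089 to 0.060), and 4 of 8 brains correlated best with their own number. The number as a replicate block gave 1812 genes called, and 48 in the lists. DESeq2 called 2195 genes and limma-voom 1629. Each member had at least 879 reads in every brain. Whether depth or the number of brains limits these values more was not tested.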
